A study of Rattus norvegicus with 6 samples.

Results

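The genes described are Btg1, Btg2, Btg3, Tob1 and Tob2, BTG and TOB genes chosen by symbol with earlier results of these data known, 5 of the 14390 genes to which the authors' annotated table assigns at least 1 peak. All table rows with these symbols were taken, 94 of 159452 peaks, and each was joined by chromosome and start to its signal in the peak list it came from. The table holds 159452 of the 161730 peaks found with the antibody labelled 1804 in α1ACT cells. Its name marks them as found in those cells only, and they are called α1ACT-only peaks below. Their absence from the empty-vector lists over the whole table is not shown here. The experiment was chromatin immunoprecipitation with sequencing (ChIP-seq) in PC12, a rat pheochromocytoma line, at passages 18 to 20. One line stably expressed human α1ACT, titled Q11 in the labels, and the other the pCDNA3 vector alone, titled EV. Each line gave 3 libraries, precipitated with M2, which the protocol calls anti-FLAG, or with 1804, or not precipitated (input). Peak lists were used for the 4 precipitated libraries only, with 1 library per group and thus no replicate error. The sources used here do not give what 1804 recognises, the number of clones behind each line or the read depth, and the series design text speaks of tissue at day 3 where the sample labels name PC12 cells.

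BTG and TOB proteins share a conserved N-terminal domain through which they bind the deadenylase subunits of the CCR4-NOT complex, which shortens the poly(A) tails of mRNAs. They restrain proliferation in many cell types, and TOB proteins also bind the cytoplasmic poly(A)-binding protein. Btg2, also called Pc3 and Tis21, is an early response gene induced by nerve growth factor in PC12 cells and is known for its role in neuronal differentiation. α1ACT is translated from the mRNA of the calcium channel gene CACNA1A and acts as a transcription factor, and Btg1 is one of its reported targets. The question was where α1ACT-only peaks lie around the start sites of this gene family.

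The 5 genes differed in how their peaks sat around the transcription start site (TSS). Tob2 had high-signal peaks on either side of the TSS, 125 bp downstream and 55 bp upstream. Btg1 had a high-signal peak 262 bp downstream of its listed TSS, among weaker ones. The nearest Btg2 peaks, 135 and 409 bp downstream, were of lower signal than that peak. Tob1 had its strong peak 2133 bp upstream of its listed TSS, and Btg3 had none nearer than 37696 bp. The listed start of each of the 5 genes is that of a single transcript, and the one listed for Tob1 may lack an upstream first exon. Whether Tob1 also starts upstream was not tested. The Tob1 distances below hold for the listed start only, and they and the Tob1 sequence may not describe its promoter. The same holds for Btg1, where an ATG directly follows the window printed below. The sequences just upstream of start sites are shown first. All 5 genes were matched by symbol in a RefSeq promoter table of build GRCr8, and the 250 bases before the start are printed 5′ to 3′ on the gene's strand. Whether these starts are the listed ones, from which the peak distances are counted, was not checked. Capitals mark matches, on either strand, to an AT-rich motif spelled TTATAA, to the TATA box spelled TATAAA, to CCAAT (an element bound by NF-Y), to the GC box spelled GGGCGG and to the cAMP response element spelled TGACGTCA. The AT-rich motif and the TATA box can overlap in sequence.
Tob2 (chr7:115251564-115251813, minus strand): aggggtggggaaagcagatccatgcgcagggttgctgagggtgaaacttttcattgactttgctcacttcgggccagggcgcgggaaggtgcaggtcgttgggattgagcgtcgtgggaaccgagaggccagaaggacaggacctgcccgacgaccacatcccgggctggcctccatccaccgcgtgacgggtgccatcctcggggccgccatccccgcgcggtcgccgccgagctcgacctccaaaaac
Btg1 (chr7:33227899-33228148, plus strand): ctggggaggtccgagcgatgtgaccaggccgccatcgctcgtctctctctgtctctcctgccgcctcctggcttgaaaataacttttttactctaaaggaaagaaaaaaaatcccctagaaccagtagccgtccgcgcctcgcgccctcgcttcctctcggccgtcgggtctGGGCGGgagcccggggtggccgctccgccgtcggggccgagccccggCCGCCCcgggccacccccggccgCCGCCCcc
Btg2 (chr13:48087691-48087940, minus strand): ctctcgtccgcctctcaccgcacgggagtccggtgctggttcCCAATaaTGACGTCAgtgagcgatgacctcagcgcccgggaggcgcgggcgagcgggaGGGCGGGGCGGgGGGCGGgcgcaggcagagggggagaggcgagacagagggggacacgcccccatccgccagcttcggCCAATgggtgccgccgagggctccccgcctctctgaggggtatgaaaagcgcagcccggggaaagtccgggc
Tob1 (chr10:79659743-79659992, plus strand): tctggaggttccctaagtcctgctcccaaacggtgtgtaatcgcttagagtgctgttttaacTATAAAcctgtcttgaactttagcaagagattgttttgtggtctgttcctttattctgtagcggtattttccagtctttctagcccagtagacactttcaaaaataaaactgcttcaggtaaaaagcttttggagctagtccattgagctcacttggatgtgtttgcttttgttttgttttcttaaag
Btg3 (chr11:30532982-30533231, minus strand): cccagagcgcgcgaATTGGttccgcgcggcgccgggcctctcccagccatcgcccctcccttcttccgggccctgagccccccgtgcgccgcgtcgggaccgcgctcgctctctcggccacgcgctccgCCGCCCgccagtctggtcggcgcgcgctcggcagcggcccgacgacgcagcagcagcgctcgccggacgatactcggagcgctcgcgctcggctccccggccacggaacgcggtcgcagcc

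These windows were GC-rich in 4 of the 5 genes. The GC content was 65.2% for Tob2, 68.4% for Btg1, 72% for Btg2 and 78% for Btg3, and 39.2% for the printed Tob1 window. The median of 33469 promoter windows was 51.2%. Btg3 had the highest GC content of the 5 and the most CpG dinucleotides, 47 in 250 bases, against 28 for Btg1, 27 for Btg2, 23 for Tob2 and 3 for Tob1. The GC box occurred 3 times each in the Btg1 and Btg2 windows and once in that of Btg3, and 30.5% of all windows held at least 1. In Btg2 the first GC boxes overlap by a base. CCAAT occurred at 2 places in Btg2 and 1 in Btg3, and in 34.0% of all windows. Of the 5, the Btg2 window alone held the cAMP response element, from 201 to 194 bases before the start, a match found in 1.59% of windows. The TATA box was present once, in the printed Tob1 window, and in 12.9% of all windows, and the AT-rich motif in none of the 5 and in 5.35% of all windows. The Tob2 window held no match to any of the 5 motifs. A match is a run of letters and not a measured binding site. The table's build differs from the rn5 build of the peaks, so no peak was placed base by base on these sequences.

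Near-TSS peaks are those within 1000 bp of the TSS by the authors' distance. Of the 5 genes, 4 had at least 1, against 43.2% of all 14390 genes in the annotated table, and 3 of the 5 had at least 2, against 15.1%. The numbers were 2 of 5 for at least 3 near-TSS peaks, against 4.14%, and 1 of 5 for at least 4, against 1.01%. Both sides of the TSS held a near-TSS peak in 2 of the 5, Btg1 and Tob2, against 8.42% of genes. Within 500 bp of the TSS a peak was listed for 3 of the 5, against 38.4% of genes. With 5 genes and 1 library these shares are descriptions and were not tested. The 4 genes held 10 near-TSS peaks, 7 over or downstream of the TSS and 3 upstream, and 66.6% of all 9175 near-TSS peaks lay over or downstream. Signal, the authors' value per peak, has no stated scale between libraries and is used to rank peaks within the α1ACT 1804 list, where α1ACT-only peaks ranged from 2.00 to 899 with a median of 3.02. The upper 10% of α1ACT-only peaks began at a signal of 5.28, and 2 of the 5 genes had a near-TSS peak of that rank, against 19.7% of all genes. In the upper 50% it was 3 of the 5, against 35.3%. Near-TSS peaks ranked high in general: 37.1% of all 9175 reached the upper 10%, against 3 of the 10 of these genes. The median signal was 3.375 for these 10 peaks and 4.36 for all near-TSS peaks, so as a group the 10 were not high for their position.

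**Figure D1:**
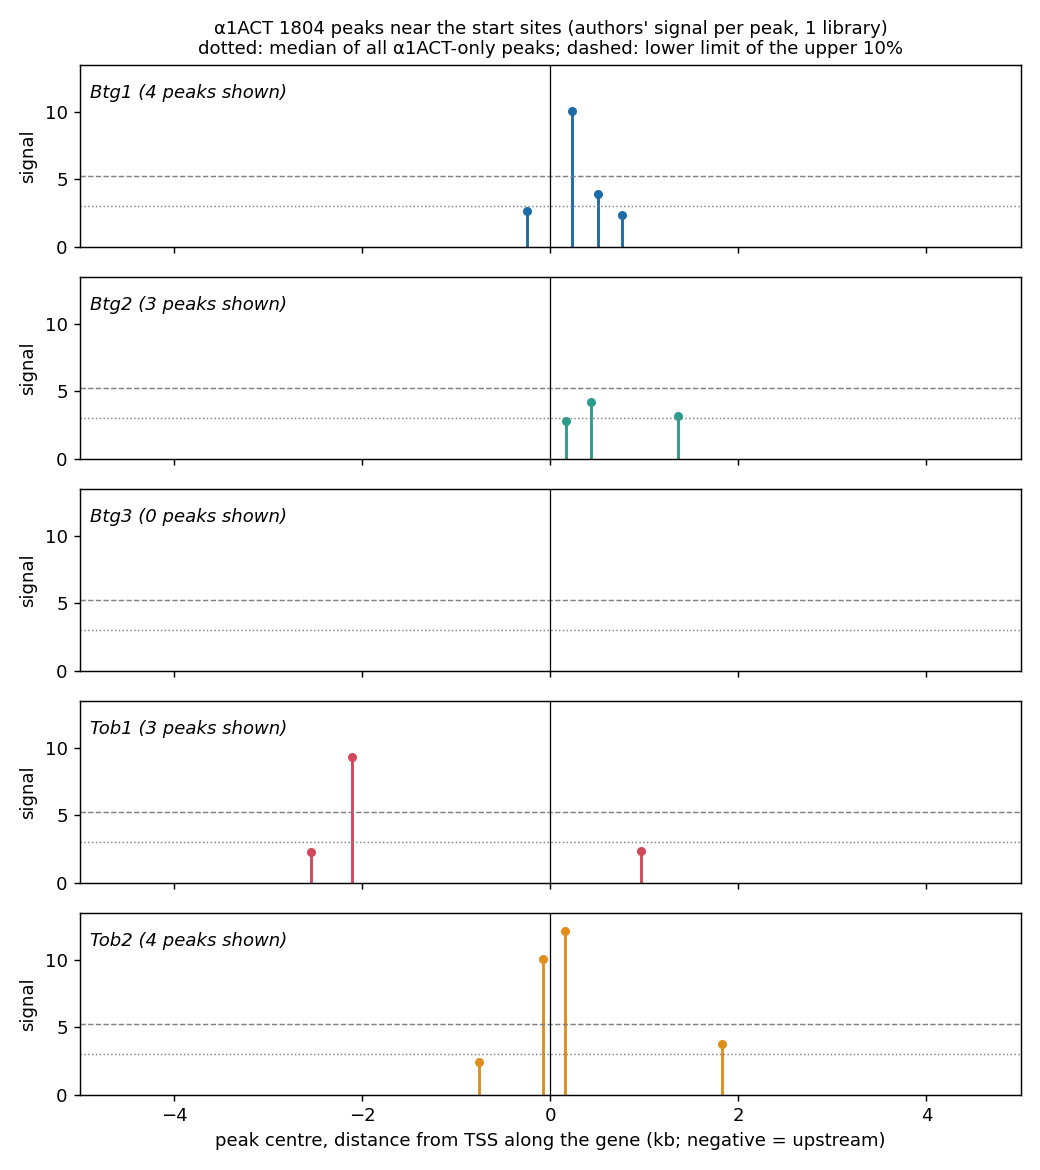
Signal of each assigned peak (vertical axis, authors' units) against the distance of its centre from the TSS in kb (horizontal axis, 5 kb on each side), with 1 panel per gene, the median of all α1ACT-only peaks dotted and the start of their upper 10% dashed. Tob2 has peaks above 10 on either side of the TSS, and Btg1 has a peak above 10 just downstream of it. The strong Tob1 peak lies upstream, Btg2 stays below the dashed line and Btg3 has no peak in the window.

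Tob2, which encodes a TOB protein with a long C-terminal region that binds poly(A)-binding protein, had the highest-signal near-TSS peak of the family. It lies on the minus strand of chromosome 7 from 123054926 to 123063635 (rn5, as are all peak and gene coordinates below). A peak at chr7:123063455-123063510 lay 125 bp downstream of the TSS and had 12.2 units of signal, and one at chr7:123063690-123063745, 55 bp upstream, had 10.1. This pair on either side of the TSS ranked 551st and 1214th of the 159452 α1ACT-only peaks. A weaker peak, at chr7:123064362-123064417 and 727 bp upstream, had a signal of 2.45. Its highest near-TSS signal was above that of 96.4% of the 6219 genes with such a peak. It was among 18 genes (0.125% of the table) with at least 2 near-TSS peaks of signal 10 or more, a limit chosen after its values were seen. The other 2 peaks assigned to Tob2 lay 1802 and 10120 bp downstream of the TSS, with signals of 3.78 and 2.39. Tef, a PAR bZIP transcription factor gene 20.5 kb away on the downstream side, had 3 near-TSS peaks of up to 11.6.

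Btg1, whose protein restrains proliferation, had the most near-TSS peaks in the family, 4 in all, grouped within 1.07 kb. In order along the gene their signals were 2.69 at 278 bp upstream and 10.1, 3.92 and 2.34 at 262, 535 and 789 bp downstream, so that 1 peak stood above the rest. That peak ranked 1207th among α1ACT-only peaks, and the gene's highest near-TSS signal was above that of 92.5% of genes with such a peak, below that of Tob2. An ATG forms the first 3 bases after the printed Btg1 window. Whether that place is the listed rn5 start, from which the Btg1 distances are counted, was not checked. Whether Btg1 also starts upstream was not tested. Its distances and the sides of its peaks hold for the listed start only. They and its printed window may not describe its promoter. Btg1 as listed spans 2258 bp of the plus strand of chromosome 7, from 37858321 to 37860578. Its first near-TSS peak, at chr7:37858043-37858098, is the one that lies before the listed start.

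Btg2, the early response gene, had near-TSS peaks of modest rank. Its peak at chr13:55969594-55969649, 409 bp inside the gene, had a signal of 4.21, and that at chr13:55969868-55969923, 135 bp downstream, had 2.83. Both lie within the gene, which occupies the minus strand of chromosome 13 from 55966299 to 55970058. The higher was above 79.3% of α1ACT-only peaks, but as the highest near-TSS peak of a gene it stood above 38.7% of the 6219 genes, and the median over those genes was 4.92. Another peak, 1330 bp downstream, had a signal of 3.16, and the remaining 2, at 13468 bp upstream and 17903 bp downstream, had 2.87 and 2.33. No Btg2 peak reached the upper 10%. The nearest genes with an assigned peak on either side, Fmod and Chit1, had no near-TSS peak.

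Tob1, whose protein was named for its interaction with the ErbB-2 receptor, had a strong peak outside the 1000 bp limit around its listed TSS. The peak, at chr10:81744383-81744438 and 2133 bp upstream of the listed TSS, had a signal of 9.35, above 99.0% of α1ACT-only peaks and 1662nd in rank. Another lay 2574 bp upstream with a signal of 2.26. Within 1000 bp there was 1 peak, at chr10:81747452-81747507, of signal 2.34 and just inside the limit at 991 bp, and its signal was above that of 4.26% of genes with a near-TSS peak. Tob1 spans 2036 bp of the plus strand of chromosome 10 from 81746516 to 81748551. The annotated table used a single transcript for it, as for each of the 5 genes. Its other 3 peaks were distal, 80724 bp upstream with a signal of 5.28 and 37846 and 51679 bp downstream with 2.99 and 3.80. Counting to 3000 bp leaves the family at 4 genes of 5, against 52.3% of all genes, and the highest Tob1 signal is then 9.35, above that of Btg2 and below those of Btg1 and Tob2.

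Btg3, an antiproliferative gene of the B-cell translocation family, was assigned 19 peaks, and none was near its TSS. All 19 were distal intergenic and upstream, between 37696 and 111993 bp away. The highest were at chr11:20622045-20622100, with a signal of 6.75 at 78110 bp, and at chr11:20621453-20621508, with 5.54 at 77518 bp, and the other 17 ranged from 2.17 to 4.98. The gene lies on the minus strand of chromosome 11 from 20528289 to 20543935. Its end is 77 bp from the end of Cxadr, the coxsackievirus and adenovirus receptor gene on the other strand, which had a near-TSS peak of signal 7.15. On the upstream side the nearest edge of the next gene with an assigned peak was 188 kb away.

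**Figure D2:**
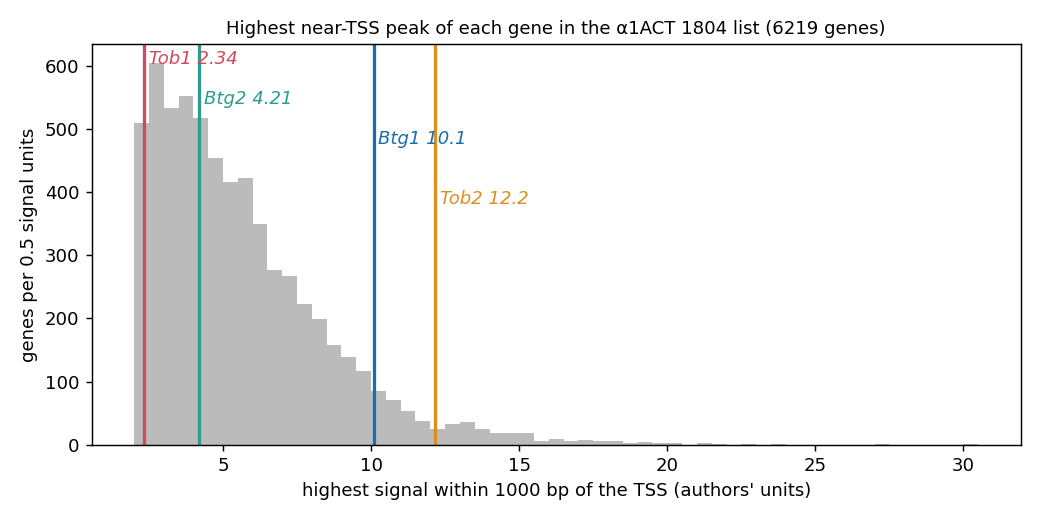
Histogram of the highest near-TSS signal of each of the 6219 genes that have a near-TSS peak (horizontal axis, authors' units in steps of 0.5; vertical axis, genes per step), with coloured lines at 4 genes. Tob2 at 12.2 and Btg1 at 10.1 lie in the right tail, Btg2 at 4.21 lies below the median of 4.92 and Tob1 at 2.34 lies near the lower end.

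Far from the TSS, the family's peaks were mostly those of Btg1. It was assigned 59 of the 94 peaks, more than 96.6% of the genes in the table, where the median gene had 4, and 55 of the 59 were distal intergenic. The authors' table gives each peak to a single gene, not always the one with the nearest edge: the farthest upstream Btg1 peak lay nearer to the edge of Eea1. The nearest genes with an assigned peak, Eea1 upstream and Dcn downstream, lay 625 kb and 923 kb away. With gaps of at most 20 kb joined, a limit chosen after seeing the data, the Btg1 peaks formed 10 groups from 349 kb upstream to 442 kb downstream. Groups of 10, 10, 12 and 10 peaks lay 84.4 to 90.7, 173 to 216, 255 to 279 and 427 to 442 kb downstream, with median signals of 3.00, 2.53, 2.60 and 2.74. The highest distal peak, at chr7:38070822-38070877 and 212556 bp downstream, had a signal of 7.81, and 5 of the 55 distal peaks reached the upper 10%. Over the family, the median signal was 2.77 for the 84 peaks beyond 1000 bp and 2.99 for all such peaks of the table. In all, 58 of the 94 peaks lay below the median signal of α1ACT-only peaks, and 85.1% were distal intergenic, against 74.6% of the table.

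**Figure D3:**
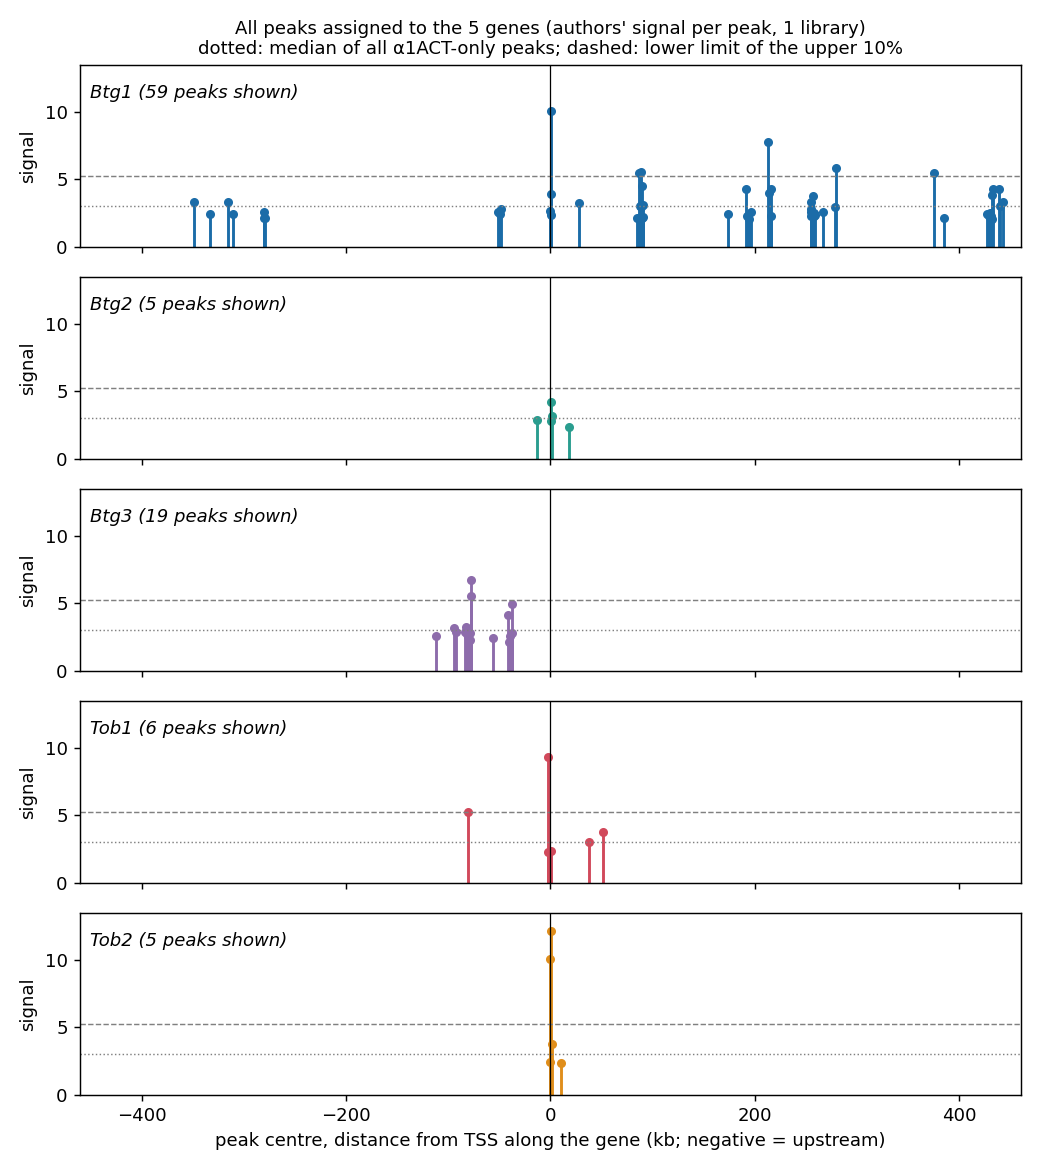
Signal (vertical axis, authors' units) of all 94 assigned peaks against the distance of their centre from the TSS in kb, with 1 panel per gene and the same dotted and dashed lines for the median and the upper 10%. Btg1 peaks extend over 792 kb in groups, Btg3 peaks lie on the upstream side alone, and those of Tob2 stay within 11.0 kb.

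The authors' −log10 q-value ran from 1.34 to 3.89 over the 94 peaks, and 3.89 was the highest value in the list. Of the 94 peaks, 7 (7.45%) had that value, against 7.08% of all α1ACT-only peaks. They were the near-TSS peak pair of Tob2, the highest near-TSS peak of Btg1, the upstream Tob1 peak, the highest Btg3 peak and 2 distal Btg1 peaks.

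The other precipitations listed no peak at these genes. Within 100 kb of the 5 start sites the α1ACT 1804 list held 72 peaks, whatever gene they were assigned to, and the α1ACT M2, empty-vector 1804 and empty-vector M2 lists held 0 each. The nearest peak of the α1ACT M2 list was 2.87 Mb from the TSS for Btg3, 3.49 Mb for Tob2, 5.43 Mb for Tob1, 15.4 Mb for Btg1 and 17.2 Mb for Btg2. In the empty-vector 1804 list these distances were 2.87 Mb for Btg3, 3.49 Mb for Tob2, 3.74 Mb for Tob1, 15.4 Mb for Btg1 and 17.0 Mb for Btg2, and in the empty-vector M2 list they were the same to 3 digits. The lists differ in length: 161730 peaks for α1ACT 1804 and 81 for α1ACT M2, against 272 for empty-vector 1804 and 244 for empty-vector M2. Their lowest signals were 2.00 for α1ACT 1804 and 53.6 for α1ACT M2, against 14.0 for empty-vector 1804 and 19.0 for empty-vector M2, so the family's highest signal of 12.2 is under the lowest value of each of the other 3 lists. The share of all genes with a peak of these 3 lists in such a window was not counted. The counts of 0 therefore cannot be read as a trait of these genes. The part of list length and signal scale in the absence from these lists was not tested.

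Genes of the CCR4-NOT complex, the deadenylase that BTG and TOB proteins bind, had near-TSS peaks in 7 of the 9 listed genes found in the table, against 43.2% of all genes. Cnot1, the scaffold subunit, had a near-TSS signal of 8.98 at 107 bp downstream, the deadenylase gene Cnot6l 8.91 at 513 bp upstream and Rqcd1, the gene of subunit CNOT9, 8.87 at 693 bp downstream. The deadenylase genes Cnot8 and Cnot7, whose proteins bind BTG and TOB directly, had 5.58 at 491 bp upstream and 4.91 at 389 bp downstream. Cnot11 had 6.32 and Cnot4, which encodes a ubiquitin ligase, had 2.42. Cnot2 and the deadenylase gene Cnot6 had no peak nearer than 29613 and 9322 bp, and Cnot3 and Cnot10 had no row in the table. The median of the highest near-TSS signal was 6.32 over these 7 genes and 4.92 over all genes with such a peak.

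The other lists had shares of the same order. Other deadenylation and poly(A)-binding genes had a near-TSS peak in 10 of the 16 found in the table of 21 listed, led by the RNA-binding repressor gene Pum2 with a signal of 9.75 and by Zfp36 and Zfp36l2, genes of AU-rich element binding proteins, with 7.47 and 6.87. Cell cycle inhibitors and growth arrest genes had one in 13 of 20 found of 25 listed, led by the sestrin gene Sesn3 with 17.4, the polo-like kinase gene Plk2 with 12.1 and the transcription factor gene Foxo1 with 9.52. Of the protein partners of BTG and TOB, 5 of 7 found of 9 listed had one: Pabpc1, a cytoplasmic poly(A)-binding protein gene, with 6.62, Cnot8 and Cnot7 as above, the BMP signal transducer gene Smad1 with 4.39 and the arginine methyltransferase gene Prmt1 with 3.29. Smad4 and Smad5 had peaks no nearer than 13695 and 14144 bp, and Hoxb9 and Cpeb3 had no row. The partner list shares Cnot7 and Cnot8 with the CCR4-NOT list and Pabpc1 and Cpeb3 with the deadenylation list. The family member Btg4, outside the 5, had no row either. The share of genes in the table with a near-TSS peak was 80% for Btg and Tob genes, and 77.8%, 62.5%, 65% and 71.4% for the 4 lists, each above the 43.2% of all genes.

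**Figure D4:**
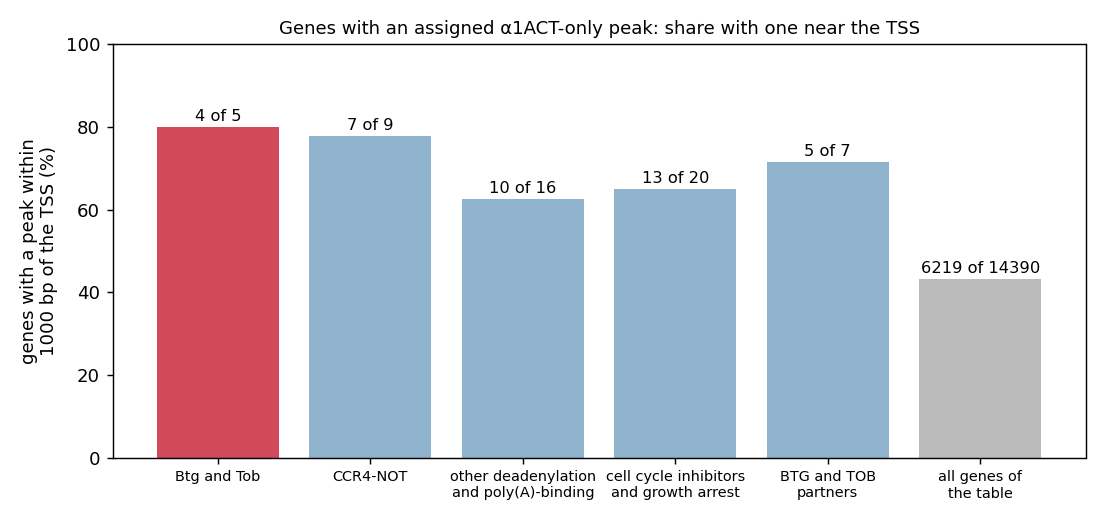
Percent of genes with a peak within 1000 bp of the TSS (vertical axis) for the Btg and Tob genes, the 4 gene lists and all genes of the annotated table, with the counts above the bars. The Btg and Tob bar, 4 of 5, is close to that of the CCR4-NOT genes, 7 of 9, and all 5 bars stand above that of the 14390 genes.

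The genes most alike were those with the same number of near-TSS peaks and the closest highest signal in the 1 library. For Btg1, among 111 other genes with 4 near-TSS peaks, they were Klf10 with 10.1, Utp18 with 10.2 and Pde8a with 10.3. For Tob2, among 442 with 3, they were Cdc42ep4 with 12.1, Bivm with 12.1 and Phtf1 with 12.3. For Btg2, among 1535 with 2, they were Atp2b1, Hspa4 and Adgrl1, each at 4.20 to 4.21. Tob1 shared its value of 2.34 with 13 of 3881 genes with 1 near-TSS peak, the first by symbol being Armc5, Baiap3 and F2. Position was not part of the measure: the highest Klf10 peak lay 762 bp upstream of its TSS, that of Btg1 262 bp downstream.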

How the data were processed

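ChIP-seq peak lists were deposited by the authors, 1 for each precipitated library, together with 1 annotated table. The lists have narrowPeak columns, and their names point to the spp caller. The submitters' processing notes name the build rn5 and, with no roles given, HOMER, ChIPseeker, DiffBind, BWA 0.7.5a and FastQC 0.11.2. The sources used here give neither the caller's settings nor the use of the inputs. The signal and the −log10 q-value per peak are the authors' deposited values. Every peak is 56 bp wide. The table's distance to the TSS was found to run to the farther peak edge on the plus strand and to the nearer edge on the minus strand.

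Peaks were joined to signals and counted per gene with Python 3.11.15 and pandas 2.3.3, and the counting functions were checked on simulated data. With 1 library per group no test was made. Genes were named by a fixed rule: the 5 members, whole lists of under 13 genes, the 3 highest of longer lists, flanking genes and the 3 most alike. A gene selected by this rule is not reported here. The members, lists and motifs were chosen with earlier results of these data known. Alternatives were other TSS distances, signal limits, merging, window sizes and, chosen after seeing the data, distances from the peak centre. Promoter GC content was not compared with peaks over all genes, because 79.2% of the table's genes matched the promoter table, too few.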

Additional observations from a re-analysis of the deposited data

How the results depend on the processing

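Of 55 recomputed values, 41 kept the reported value, or for a count stayed within 1.5 times of it. A drop from 4 members to 3 is among those kept. The 41 also include counts of 0 for the short lists and highest signals read again from the same peak. Such values had little room to change, so the total is no measure of robustness. With only the upper 10% of peaks by signal, 2 members (Btg1 and Tob2) had a near-TSS peak, with 3 peaks, and the lists had 5 genes (other deadenylation and poly(A)-binding), 7 (cell cycle inhibitors and growth arrest) and 2 (partners). With the upper 50% the members had 5 near-TSS peaks. Within 500 bp they had 6, and Tob1 had none, so it gave no value there. Within 3000 bp the highest Tob1 signal was 9.35. Ranked among all α1ACT-only peaks, the highest near-TSS peaks were above 99.7% for Tob2, 99.2% for Btg1, 79.3% for Btg2 and 14.0% for Tob1. The α1ACT 1804 list had 14 peaks within 10 kb of the 5 start sites and 319 within 500 kb, and the other 3 lists had 0 in both. Distances from the peak centre, chosen after seeing the data, changed 1 count, that of cell cycle inhibitors and growth arrest genes, to 12. No paired analysis was possible because each group has 1 library, and no library could be left out for the same reason. Read depth is unknown, so an unlisted peak cannot be told apart from one below the depth of the library.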
